A study of Mus musculus with 70 samples.

Results

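The collagen genes were followed through promoter-centred chromatin interactions of mouse fetal tissues. They were taken as the autosomal protein-coding genes of GENCODE release M21 (mm10, the assembly GRCm38) whose symbol is Col, a number, a and a number, which gave 42 of 20780 genes. They fall into 9 structural classes. H3K4me3 PLAC-seq, which joins proximity ligation to immunoprecipitation of the promoter mark H3K4me3, was performed on C57BL/6N mice. At E12.5 it covered limb (LM), liver (LV), craniofacial prominence (CF) and 4 neural tissues, which were neural tube (NT), hindbrain (HB), midbrain (MB) and forebrain (FB). FB was also taken at 5 later stages, daily from E13.5 to E16.5 and at P0. Each tissue and stage had 2 biological replicates, so that there were 24 libraries, and no group carried a treatment or a mutation. The tissues were whole dissected pieces, and CTCF ChIP-seq peaks of the same 12 tissue-stages were used beside the interactions.

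Collagens are triple-helical proteins of the extracellular matrix. Fibrillar collagens build the fibres of skin, bone, tendon and cartilage, fibril-associated collagens decorate those fibres, network-forming collagens make up basement membranes, and collagen VI forms beaded filaments around cells. In the embryo, mesenchymal cells of the limb and face lay down much of this matrix, whereas the neural tissue holds collagen mainly in vessels and meninges. A promoter that carries H3K4me3 can be seen in contact with distant sequence, and where CTCF is bound at both ends of a contact its motifs often point towards each other.

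An interaction was a pair of 10-kb bins, 20 kb to 1 Mb apart, that the authors' caller (MAPS) found in contact more often than its model expected. A gene was given every called pair with an end in a bin that holds any of its annotated transcription start sites (TSSs). Contacts of 4 collagen genes show what the data look like at the sequence level, because they cover a contact called in LM and CF only (Col3a1), a long contact called in all 12 tissue-stages (Col12a1), a contact called in all 24 libraries (Col14a1) and one whose CTCF motifs do not face each other (Col26a1). For each end of the pair with the highest observed/expected ratio, the motif of the CTCF peak with the highest fold enrichment is printed. It is given 5′ to 3′ on its own strand, from the RefSeq genome of GRCm38 (mm10). Capitals mark positions 5 to 18 of the motif's 19, the stretch read as CACCAGGGGGCGCC in the consensus TGGCCACCAGGGGGCGCCA.
Col3a1, TSS bin, chr1:45314130-45314148, minus strand: tagcCACTAGGTGGCATGg
Col3a1, other bin, chr1:44745864-44745882, plus strand: agacCAGATGGTGGCGCTg
Col12a1, TSS bin, chr9:79717079-79717097, minus strand: aagcCGATAGGTGGCGCAc
Col12a1, other bin, chr9:78775614-78775632, plus strand: cgtcCACTAGATGGCAGGc
Col14a1, TSS bin, chr15:55306453-55306471, plus strand: caggCGGCAGGTGGCGCTc
Col14a1, other bin, chr15:55550906-55550924, minus strand: tgacCACAAGATGTCGCTa
Col26a1, TSS bin, chr5:136881555-136881573, minus strand: ctacCGCCAGGTGGCGCGc
Col26a1, other bin, chr5:136780661-136780679, minus strand: aggcCAGAAGAGGGCGCGt

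At Col3a1, Col12a1 and Col14a1 the printed motif at the lower coordinate lay on the plus strand and that at the higher coordinate on the minus strand, so these motifs faced each other across the contact. Less enriched peaks held further motifs, on the minus strand in the other bin of Col3a1 (fold enrichment 7.55). The TSS bin of Col12a1 held 1 more on the minus strand (5.25) and 1 on the plus strand (4.42). At Col26a1 both lay on the minus strand. The CTCF peaks over the Col3a1 motifs had fold enrichments over input of 23.8 at the TSS bin and 17.0 at the other bin in CF. For Col12a1 in LM they were 19.6 and 17.2. The 8 peaks were thus all well above input, and those of Col14a1 (34.8 and 21.1 in CF) and Col26a1 (29.9 and 20.3 in LM) were in the same range. The Col3a1 pair joined chr1:45310001-45320000 to chr1:44740001-44750000, a bin with no protein-coding TSS 570 kb away, with 47 read pairs where 3.47 were expected in CF (ratio 13.6) and a ratio of 7.24 in LM. It was called in all 4 LM and CF libraries and in no other pooled set. The Col12a1 pair joined chr9:79710001-79720000 to chr9:78770001-78780000 at 940 kb, with 58 read pairs against 2.87 expected in LM (ratio 20.2) and a ratio of 11.3 in CF. It was called in 22 of the 24 libraries. The Col14a1 pair joined chr15:55300001-55310000 to chr15:55550001-55560000 at 250 kb, with 84 read pairs against 9.23 in CF (ratio 9.11), and its other bin holds the TSSs of Mrpl13 and Mtbp.

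Libraries differed in the number of called interactions, from 11396 (LV replicate 2) to 63868 (FB at P0, replicate 1), with 12461 and 20775 in LM. Read pairs in these calls did not follow the same order, with 492717 and 371599 in LV and 269336 and 517139 in LM. These read pairs are those inside called interactions, and the sequencing depth of the libraries was not used here. Because the totals of called interactions differed, numbers per gene were scaled to the median library total of 25872. This makes 1 interaction worth 2.08 in LM replicate 1, 2.27 in LV replicate 2 and 0.405 in FB at P0, replicate 1. Pooled call sets, which the authors made from both replicates at equal read numbers, held 21945 interactions in LV and 51264 to 79677 elsewhere. A pair that was not called has no value, and whether it lay below the caller's threshold or had no H3K4me3 peak at either end was not tested.

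Of the 42 collagen genes, 38 had an interaction in at least 1 pooled set (90.5%, against 76.1% of all 20780 genes). Col10a1, Col4a3, Col4a4 and Col6a6 had none. A gene with more TSS bins has more chances to hold an interaction, and these shares were not matched for the number of bins. In the single libraries 31 collagen genes had an interaction, 11 had none, and 2 (Col14a1 and Col27a1) had one in every library. Summed over the collagen genes, the scaled number was 109.6 to 152 in the 4 LM and CF libraries and 35.4 to 58.6 in the 20 others, with no overlap. It was 35.4 to 58.6 in the 8 neural libraries of E12.5 and 45.4 to 53.4 in LV. The number of collagen genes with an interaction did overlap, with 17 to 22 in LM and CF libraries and 8 to 21 in the others. Within a bulk tissue, a contact in fewer cells and a weaker contact in each cell cannot be told apart.

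**Figure D1:**
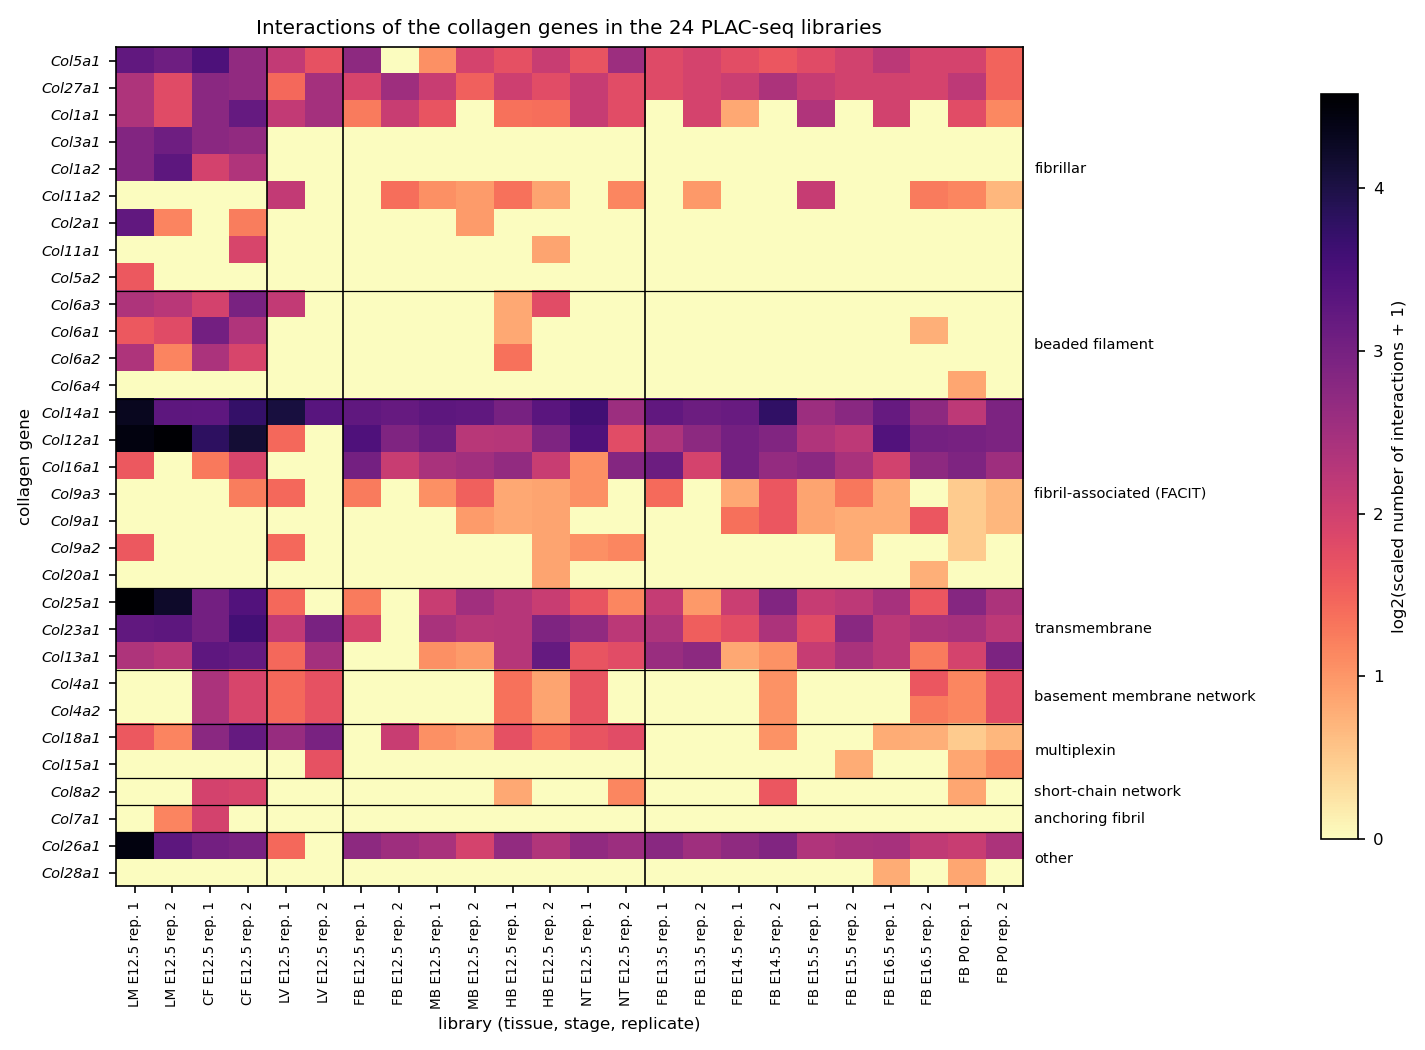
Scaled number of interactions, as log2(scaled number + 1) by colour, of the 31 collagen genes with an interaction in a library (rows, grouped by structural class) in the 24 libraries (columns). Col3a1 and Col1a2 have values in the 4 LM and CF libraries and 0 in the 20 others, while Col14a1 and Col27a1 have values in all 24.

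The labelled tissues were checked against marker genes by the same measure. Over 5 markers of limb and face mesenchyme, the summed scaled number was 94.8 to 156 in LM and CF, 8.05 to 16.0 in neural libraries and 0 in LV. Over 5 neural markers it was 2.08 to 31.4 in LM and CF, 85.4 to 148 in neural libraries and 0 to 4.54 in LV. The neural tissues, LM and CF thus stood where their labels put them. Of the other cell types that bear collagen, 3 markers of meninges (genes that mesenchyme also uses) reached 66.8 to 95.5 in LM and CF, 13.4 to 26.8 in neural libraries and 6.89 to 9.08 in LV. Endothelial markers were 0 to 1.44 in LM and CF, 0 in neural libraries and 4.54 to 6.89 in LV, and Cdh5 and Tek were at 0 in every pooled set of E12.5. Cartilage markers, of which Sox9 held most, were 17.7 to 43.6 in LM and CF, 19.5 to 49.9 in neural libraries and 0 in LV. Hepatocyte markers were 0 in LM and CF, 0 to 1.09 in neural libraries and 5.17 to 6.81 in LV, where Alb was at 0 even in the pooled set. The sum of 3 erythroid markers was 0 in LM and CF, 0 to 2.30 in neural libraries and 3.45 to 9.08 in LV, with Epb42 at 0. In the pooled sets of E12.5, Rbp4 was highest in LV (2, against 1 in CF). The others were not, with Afp at 1 in LV and 2 in NT, and Hnf4a at 0 and 1 in HB. Klf1 had 2 in LV and 3 in CF, and Tal1 had 2 in LV and 9 in HB. These pooled numbers were not scaled, and the LV set held 21945 interactions against 51264 to 71456 in the other tissues of E12.5. Unscaled, they did not set LV apart by these markers. Skeletal muscle markers stayed at 0 to 1.44 in LM and CF and 0.813 to 4.83 in neural libraries, with Myog at 0, and epidermal markers were at 0 in every library of E12.5. In the pooled sets of E12.5, the epidermal markers had a few interactions in LM and CF and 0 in the other tissues. Trp63 had 4 in LM and 3 in CF, Krt14 had 1 and 2, and Krt5 had 1 and 0. The part of these cell types in the collagen differences was not tested.

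Limb and face carried more collagen interactions than the 4 neural tissues at E12.5. Of the 17 collagen genes with a mean scaled number of at least 1 over the 14 libraries, 11 were higher in LM and CF and none was lower (limma, adjusted p under 0.05, on log2 of the scaled number + 1), beside 11.5% of all 5383 genes tested that were higher and 14.8% that were lower. The genes that were higher make fibrils (Col1a1, Col1a2, Col3a1, Col5a1), beaded filaments (Col6a1, Col6a3), a fibril coat (Col12a1) and membrane-bound collagens (Col13a1, Col23a1, Col25a1), with Col26a1 outside these classes. At an unadjusted p under 0.05, 12 were higher and 1 (Col16a1) was lower, beside 16.9% and 21.5% of all genes tested. On the counts, with the library totals taken into account as library sizes, edgeR called 10 higher and none lower, beside 9.47% and 9.51%. In the pooled sets, a comparison added after seeing the data, both LM and CF were above all 4 neural sets for 8 of the 17 genes, beside 9.81% of all genes tested, and below for none, beside 11.6%. These 8 were among the 11, and Col13a1, Col23a1 and Col26a1 were the 3 whose pooled numbers overlapped. The median log2 difference was 1.19 over the 17 genes and -0.04 over all genes tested. Of the 17, 6 (Col1a2, Col3a1, Col4a1, Col4a2, Col6a1 and Col6a3) had a mean under 1 outside LM and CF and so entered the test through LM and CF, and 25 collagen genes did not enter it, 12 of which had an interaction in some library of E12.5. Without LM replicate 1, CF replicate 2 or HB replicate 1, the number of higher genes was 7 in each case.

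The largest log2 differences from neural tissues among the 17 genes were in the fibrillar class. Col3a1, the chain of collagen III in skin and vessel walls, had scaled numbers of 6.23 and 7.47 in LM, 5.74 and 5.45 in CF, and 0 in all other 20 libraries. Col1a2, the second chain of collagen I, the main protein of bone and tendon, had 6.23 and 8.72 in LM, 2.87 and 4.09 in CF, and 0 in the 20 others. Both genes thus separated LM and CF fully from every other library, on unscaled numbers of 3 to 6 interactions for Col3a1 and 2 to 7 for Col1a2 per library. Their log2 differences from neural tissues were 2.85 (SE 0.29, limma adjusted p = 1.10e-05) and 2.61 (SE 0.29, adjusted p = 2.10e-05). Against a floor of 3 interactions over the 8 neural libraries, Col3a1 was at least 15.7-fold and Col1a2 at least 13.8-fold higher in called interactions. These are not bounds on contact, since a promoter without an H3K4me3 peak in a tissue may not have been testable there. In the pooled sets, which reach deeper, Col3a1 had 17 interactions in LM, 13 in CF and 0 in all 10 others. Col1a2 had 10 and 11, and 0 to 3 elsewhere, so its zeros in neural libraries of E12.5 hold at replicate depth only.

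Col1a1 encodes the other chain of collagen I. Its scaled numbers were 4.15 and 2.49 in LM and 5.74 and 8.18 in CF, against a neural range of 0 to 3.28 with a median of 1.90. LM replicate 2 fell inside the neural range. The log2 difference was 1.08 (SE 0.36, limma adjusted p = 0.0387) and passed under 7 of 22 alternative settings, with adjusted p from 0.00473 to 0.442. It was lost without LM replicate 1, either CF replicate, FB replicate 1, MB replicate 2, either HB replicate or NT replicate 2 (adjusted p = 0.0636 to 0.141). Col5a1, whose product sets fibril diameter, had 8.30 and 7.47 in LM and 10.1 and 5.45 in CF, and 0 to 5.62 (median 2.56) in neural libraries. The lowest CF library lay just under the highest neural one (FB replicate 1). Its log2 difference was 1.39 (SE 0.44, limma adjusted p = 0.0300) and passed under 11 of 22 settings. It was lost without any LM or CF library and without replicate 1 of MB, HB or NT (adjusted p = 0.0522 to 0.134). Col27a1, a fibrillar collagen of cartilage with interactions in every library, did not pass (log2 difference 0.43, limma adjusted p = 0.335). Of the fibrillar genes, 6 were not tested, and they had few interactions even in the pooled sets. Col5a2, a partner chain of Col5a1, had 3 pooled interactions in each of LM and CF and 0 elsewhere, and Col2a1, the collagen of cartilage, had 5 and 4 against 0 to 3 elsewhere. Col11a1, a chain of the minor cartilage collagen XI, had 4 and 3, against 0 to 1 in the neural sets of E12.5. Its partner chain Col11a2 did not favour LM and CF, with 2 and 3 against 3 to 5 in those neural sets. Col24a1 had 0 and 1 against 0 to 1, and Col5a3 had 0 in both against 1 to 2. Summed over the 11 fibrillar genes, the scaled number was 29.9 to 39.4 in LM and CF, 6.59 to 10.99 in neural libraries and 11.4 to 12.1 in LV.

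**Figure D2:**
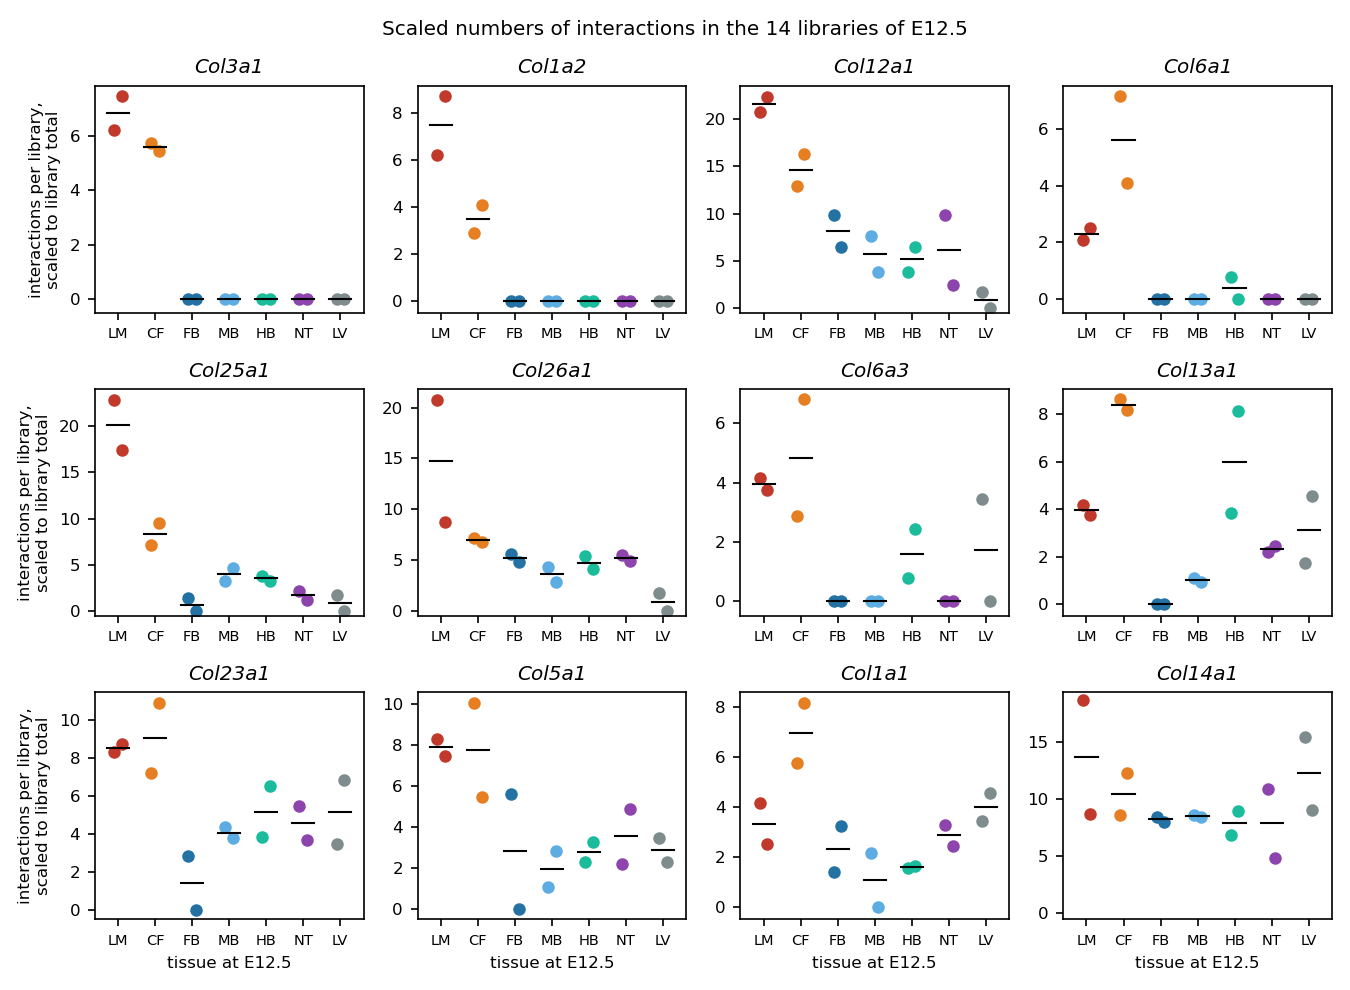
Scaled number of interactions per library (y axis) of 12 collagen genes in the 7 tissues of E12.5 (x axis). Points are the 2 replicates of a tissue and lines their means, and every LM and CF point lies above every neural point for 8 of the 12, which leaves out Col13a1, Col5a1, Col1a1 and Col14a1.

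Collagen VI showed the same direction. Col6a1 had scaled numbers of 2.08 and 2.49 in LM, 7.18 and 4.09 in CF, 0.768 in HB replicate 1 and 0 in the other 7 neural libraries. The groups did not overlap, and the log2 difference was 2.10 (SE 0.30, limma adjusted p = 0.000186). Col6a3 had 4.15 and 3.74 in LM and 2.87 and 6.82 in CF, against 0.768 and 2.44 in HB and 0 in the other 6 neural libraries, with a log2 difference of 2.06 (SE 0.43, adjusted p = 0.00285). In the libraries, the neural values of both genes were those of HB alone. The deeper pooled sets held Col6a1 interactions in all 4 neural tissues (1 to 3, against 4 in LM and 10 in CF), and Col6a3 had 1 in HB and 0 in the other 3 (3 in LM and 8 in CF). Col6a2, the third chain of the common collagen VI, was below the filter, with 4.15 and 1.25 in LM, 4.31 and 2.73 in CF and 1.54 in HB replicate 1. It had 3 and 6 pooled interactions in LM and CF and 0 to 2 in neural tissues of E12.5. The genes for the remaining chains of the class, Col6a4, Col6a5 and Col6a6, had at most 1 pooled interaction in any set.

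The fibril-associated collagens held 9 genes, of which 3 were tested and 1 passed. Col12a1, which coats collagen I fibrils in tendon, fascia and periosteum, had scaled numbers of 20.8 and 22.4 in LM, 12.9 and 16.4 in CF, and 2.44 to 9.84 (median 6.47) in neural libraries. The 4 values lay above all 8 neural ones. Its log2 difference was 1.47 (SE 0.35, limma adjusted p = 0.00707) and passed under all 22 settings. Col14a1, a close relative of Col12a1 in structure, had 18.7, 8.72, 8.62 and 12.3 in LM and CF and 4.89 to 10.9 (median 8.45) in neural libraries. These ranges overlapped, and the log2 difference of 0.47 did not pass (SE 0.26, limma adjusted p = 0.204). Col16a1, found in skin and cartilage matrix, was the single tested collagen gene with a value below 0. Its scaled numbers were 2.08, 0, 1.44 and 2.73 in LM and CF and 1.09 to 7.03 (median 4.52) in neural libraries. The log2 difference of -1.13 missed the threshold (SE 0.42, limma adjusted p = 0.0637), and it passed with TMM scaling (-1.27, adjusted p = 0.0354), with no scaling, with read pairs in place of interactions, and without LM replicate 1 or NT replicate 1 (adjusted p = 0.0323 and 0.0252). The collagen IX genes Col9a1, Col9a2 and Col9a3, whose product covers the fibrils of cartilage, were below the filter.

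The membrane-bound collagens Col13a1, Col23a1 and Col25a1 were all higher in LM and CF. Col25a1, which takes part in motor innervation of muscle, had scaled numbers of 22.8 and 17.4 in LM, 7.18 and 9.54 in CF, and 0 to 4.71 (median 2.72) in neural libraries. All 4 values were above the neural range, and the log2 difference was 2.17 (SE 0.35, limma adjusted p = 0.000490). Of its 31 pooled pairs, 29 had their end in chr3:130180001-130190000, the bin of a downstream TSS, and only 2 in the bin of the most upstream one, and with the upstream TSS alone the gene fell below the filter. Col23a1 had 8.30 and 8.72 in LM, 7.18 and 10.9 in CF, and 0 to 6.51 (median 3.803) in neural libraries. Its groups did not overlap, with a log2 difference of 1.19 (SE 0.35, limma adjusted p = 0.0211), which passed under 16 of 22 settings and was lost, among others, without either LM replicate, CF replicate 2 or HB replicate 1 (adjusted p = 0.0507 to 0.0955). Its pooled numbers of 10 in LM and 12 in CF overlapped the neural range of 3 to 11. Its first TSS bin is shared with Clk4, so that contacts of these genes cannot be told apart. Col13a1, a collagen of cell adhesion sites and the neuromuscular junction, had 4.15 and 3.74 in LM, 8.62 and 8.18 in CF and 0 to 8.13 (median 1.63) in neural libraries. HB replicate 2 reached the CF level, and the log2 difference was 1.40 (SE 0.32, limma adjusted p = 0.00520), which was lost with 1 mean per class of tissue in place of 1 per tissue (adjusted p = 0.0616) and with DESeq2 (0.127). Its pooled numbers were 8 in LM and 10 in CF against 3 to 12 in neural sets. Col26a1, a secreted protein with short collagen stretches, had 20.8 and 8.72 in LM, 7.18 and 6.82 in CF and 2.83 to 5.62 (median 4.86) in neural libraries. No values overlapped, yet the log2 difference of 0.95 (SE 0.32, limma adjusted p = 0.0407) passed under only 5 of 22 settings, and with 1 library left out it passed only without LM replicate 2. Without LM replicate 1 it was 0.65 with an adjusted p of 0.211, and its pooled numbers of 12 in LM and 7 in CF overlapped the neural range of 8 to 12.

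Of the basement membrane collagens and their relatives, none passed against neural tissues. Col4a1 and Col4a2, the chains of the common collagen IV, start from the same bin and had the same log2 difference of 0.59 (limma adjusted p = 0.246). Col18a1, a multiplexin of basement membranes, had 2.08 and 1.25 in LM and 5.74 and 8.18 in CF, with a log2 difference of 0.85 (adjusted p = 0.114, and 0.0166 without FB replicate 2). Every LM and CF library was above every neural one for 8 of the 17 tested collagen genes (Col12a1, Col1a2, Col23a1, Col25a1, Col26a1, Col3a1, Col6a1 and Col6a3), beside 5.35% of all genes tested, and below for none, beside 4.05%. Among the 8, Col1a2, Col3a1, Col6a1 and Col6a3 entered the test through LM and CF, so the filter favoured their separation.

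**Figure D3:**
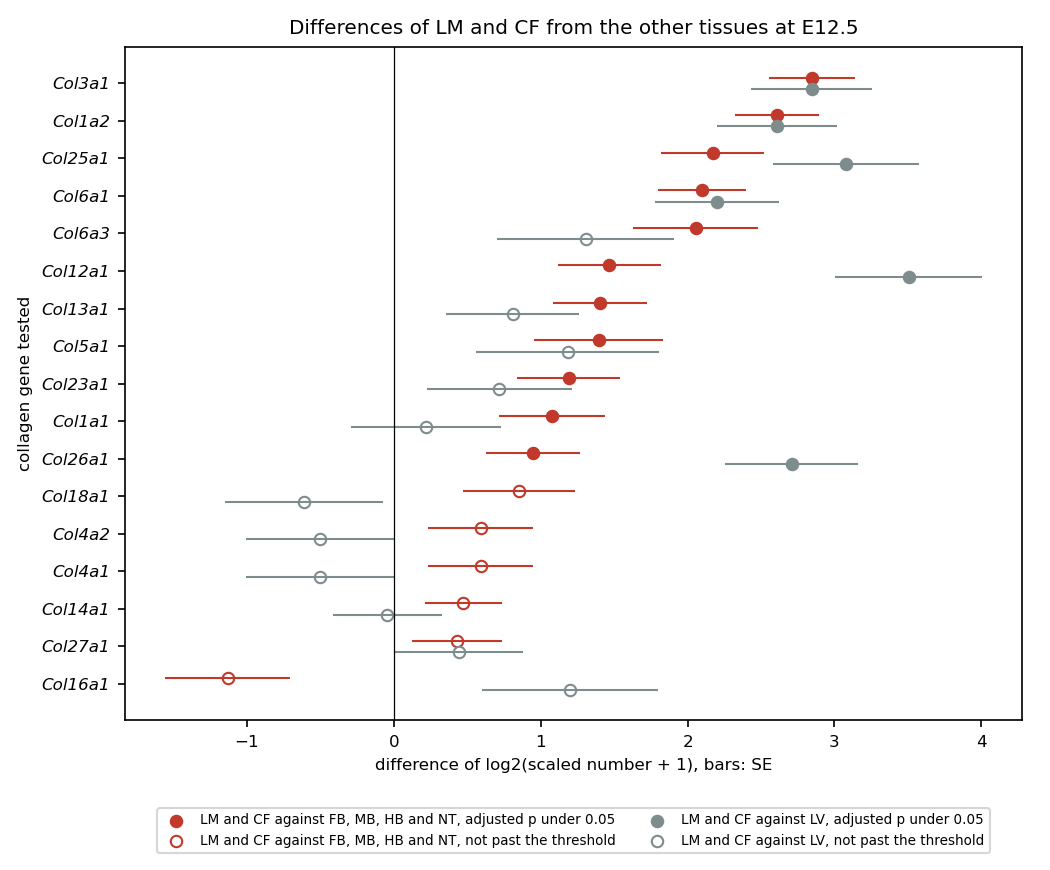
Difference of log2(scaled number + 1) between LM and CF and the neural tissues (red) or LV (grey), with its SE, for the 17 collagen genes tested at E12.5. Filled points pass the threshold of limma, 11 against neural tissues and 6 against LV, and all filled points are above 0.

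Against liver, 6 of the 17 collagen genes were higher in LM and CF and none was lower, beside 18.3% and 17.5% of all genes tested. This comparison shares the LM and CF libraries with the one against neural tissues. Col12a1 had 1.72 and 0 in LV, which gave a log2 difference of 3.51 (SE 0.50, limma adjusted p = 0.000114). Col25a1 and Col26a1 had the same LV values, with differences of 3.08 (adjusted p = 0.000305) and 2.71 (adjusted p = 0.000405). Their neural means (6.28, 2.48 and 4.67) were also above the LV mean of 0.861, a difference that was not tested. Col3a1, Col1a2 and Col6a1 were at 0 in both LV libraries. Their log2 differences were 2.85, 2.61 and 2.20 (adjusted p = 0.000128, 0.000234 and 0.00114), and against a floor of 3 interactions over the LV libraries they were at least 2.12-fold, 1.86-fold and 1.35-fold higher. The LV libraries, with few called interactions, therefore set low bounds, which apply to called interactions only. The median log2 difference was 1.18 over the 17 genes, 0.72 with the genes at 0 in LV placed at their bound, and 0 over all genes tested. At an unadjusted p under 0.05, 7 were higher and none lower, beside 23.0% and 22.6% of all genes tested, and edgeR called 4 higher and none lower, beside 8.75% and 13.2%. Col1a2 and Col6a1 were lost with edgeR (adjusted p = 0.0514 and 0.121) and Col25a1 and Col26a1 with DESeq2 (0.0632 and 0.0960). Without LV replicate 1, Col6a3 passed too (adjusted p = 0.0168), and without LM replicate 2, Col16a1 did (adjusted p = 0.0496).

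Other collagen genes had liver values near those of LM and CF. Col14a1 had scaled numbers of 15.5 and 9.08 in LV and a log2 difference of -0.05 (SE 0.37, limma adjusted p = 0.961). Col18a1 had 5.17 and 6.81 in LV, inside the range of LM and CF. Col1a1 had 3.45 and 4.54 in LV (log2 difference 0.22, adjusted p = 0.774), from 2 interactions in each library, although the pooled LV set held none. In the LV libraries Col1a1 thus had interactions where Col1a2, the gene of its partner chain, had none. Every LM and CF library was above both LV libraries for 8 of the 17 genes, beside 16.4% of all genes tested, and below for none, beside 23.3%. The 8 were the 6 that passed and Col5a1 and Col23a1, which did not (adjusted p = 0.153 and 0.276). Among the 6, Col1a2, Col3a1 and Col6a1 entered the test through LM and CF.

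Between limb and face, none of the 17 genes was higher in LM and 2 were lower, beside 2.40% and 5.67% of all genes tested. Both calls come from the shared bin of Col4a1 and Col4a2, which had 0 in both LM libraries and 4.31 and 2.73 in CF. The log2 difference was -2.15 (SE 0.58, limma adjusted p = 0.0365), and the pooled sets held 0 and 0 in LM and 8 and 6 in CF. The call was lost when any of the 4 libraries was left out (adjusted p = 0.0780 to 0.165) and with edgeR (adjusted p = 0.234), which called none in either direction, beside 1.99% of all genes higher and 2.25% lower. At an unadjusted p under 0.05, none was higher and 3 were lower, beside 8.95% and 15.1%. Col18a1, with 2.08 and 1.25 in LM below 5.74 and 8.18 in CF, did not pass (log2 difference -1.58, adjusted p = 0.127). Both LM libraries were below both CF libraries for 7 genes (Col4a1, Col4a2, Col18a1, Col13a1, Col1a1, Col27a1 and Col6a1), beside 26.2% of all genes tested, and above for 5 (Col25a1, Col1a2, Col26a1, Col12a1 and Col3a1), beside 19.6%. Of the latter, Col25a1 and Col1a2 had the largest log2 differences, and neither passed (log2 differences 1.17 and 0.92, adjusted p = 0.230 and 0.259).

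In the forebrain from E12.5 to P0, 10 collagen genes had enough interactions to be tested, and 1 was higher and none lower at E16.5 and P0 than at E12.5 and E13.5, beside 14.7% and 9.17% of all 5313 genes tested. Col25a1 had scaled numbers of 1.40 and 0 at E12.5, 3.35 and 0.953 at E13.5, 3.16 and 6.31 at E14.5, 3.29 and 3.64 at E15.5, 4.40 and 2.11 at E16.5 and 6.08 and 4.21 at P0. Early and late libraries of Col25a1 overlapped, and the highest value of all was at E14.5. The log2 difference was 1.23 (SE 0.38, limma adjusted p = 0.0306). It was lost without FB at E12.5 replicate 2, E13.5 replicate 2, E16.5 replicate 1, P0 replicate 1 or P0 replicate 2 (adjusted p = 0.0631 to 0.125) and with edgeR (0.0768). FB at P0 was the tissue-stage with the most called interactions. At an unadjusted p under 0.05, 2 collagen genes were higher and none lower, beside 22.7% and 13.9% of all genes tested, with Col13a1 the other one (log2 difference 0.75, adjusted p = 0.128). No collagen gene was called by edgeR, beside 10.1% of all genes higher and 6.70% lower. The median was 0.11 over the 10 genes and 0.15 over all. Col14a1 had a log2 difference of -0.42 (adjusted p = 0.197) and Col12a1 of 0.21 (adjusted p = 0.514). Every late library was below every early one for Col26a1 alone (log2 difference -0.38, adjusted p = 0.246), beside 8.36% of all genes tested, and above for none, beside 10.1%. Col3a1 stayed at 0 in all 12 FB libraries and in all 6 pooled FB sets.

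The contacts themselves were sorted by the pooled sets of E12.5 in which they were called, with pairs called only in later FB kept apart. A pair of LM or CF only may thus also have been called in FB at a later stage. The collagen genes had 574 distinct pairs of bins. Among the tissues of E12.5, 170 of them (29.6%) were called in LM or CF only, against 15.2% of the 180477 pairs of all protein-coding genes. A further 114 (19.9%, against 18.7%) were called in LM or CF and in neural tissue, and 24 (4.18%, against 4.76%) in those and LV. Pairs of neural tissue only made up 23.0% (31.7% over all genes), and pairs of FB after E12.5 only, 19.3% (24.979%). Pairs of LV only were 2.61%, against 2.70%. Neighbouring bins of the same contact count as several pairs, so these shares are a description. The pairs of LM or CF only were spread over 31 of 38 genes, but Col3a1 (22, which is all its pairs), Col12a1 (18 of 57), Col25a1 (14 of 31), Col1a2 (12 of 15) and Col6a1 (11 of 16) held 77 of the 170.

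**Figure D4:**
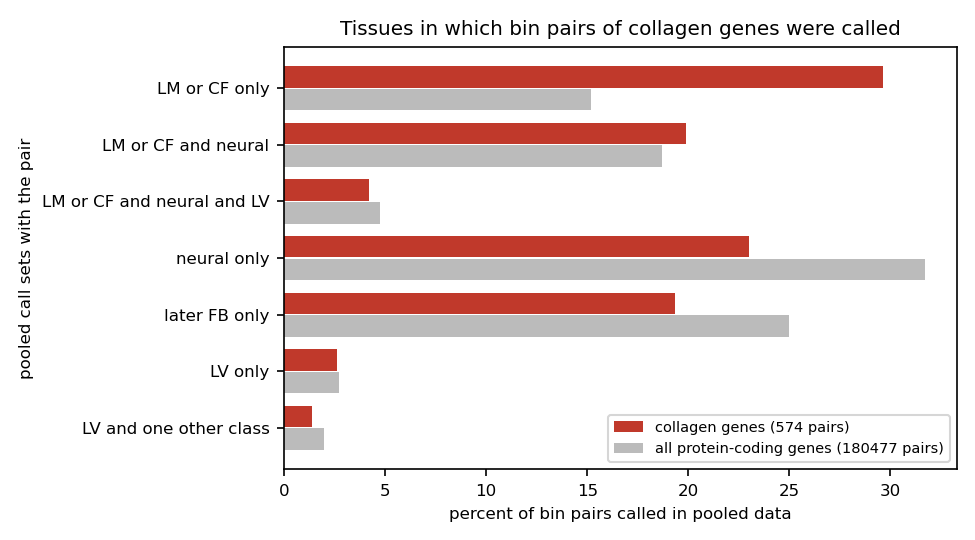
Share of pairs of bins (x axis, percent) by the pooled call sets of E12.5 that hold them, or later FB only (y axis), for the 574 pairs of the collagen genes (red) and the 180477 pairs of all protein-coding genes (grey). Pairs of an E12.5 class may also be called in later FB. LM or CF only is 29.6% for the collagen genes and 15.2% for all genes, and neural only is 23.0% and 31.7%.

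Reach differed widely between collagen genes. The 57 pairs of Col12a1 ran from 290 kb to 1000 kb with a median of 690 kb, all from the bin of its upstream TSS, and no other end held a protein-coding TSS. The 22 pairs of Col3a1 had a median of 460 kb (170 to 760 kb), with a TSS at 1 other end (Gulp1). The 15 pairs of Col1a2 had a median of 780 kb, and 11 of them ended at a TSS, among them Asb4 at 860 kb, which was called in both LM replicates (ratio 6.32 in the pooled LM set) from a bin inside the gene. These 3 genes thus reached far, and the first of them without meeting promoters. Col1a1 kept within 40 to 210 kb (18 pairs, median 115 kb), Col6a1 had a median of 140 kb (16 pairs) and Col2a1 of 50 kb (13 pairs). Col6a1 and Col6a2 lie side by side on chromosome 10 and were joined to each other at 100 kb, in both CF replicates and 4 libraries in all (ratio 3.42 in CF). No called pair joined Col3a1 to Col5a2, its neighbour on chromosome 1.

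The strongest pair of each of the 12 named genes that both LM or both CF replicates called gave the following picture. Col5a1 had 177 read pairs against 20.4 expected at 110 kb in LM (ratio 8.70), a contact called in 23 libraries. Col25a1 had a ratio of 9.38 at 500 kb in CF and 7.60 in LM (16 libraries), and Col23a1 had 7.98 at 250 kb in CF (22 libraries). Most of these strong contacts were therefore not confined to limb and face. Col26a1 had 126 read pairs against 23.2 at 100 kb in LM (ratio 5.43, 21 libraries), and Col1a1 had a ratio of 4.30 at 70 kb in CF (17 libraries). Col6a3 had 5.36 at 190 kb in LM and 4.99 in CF, in 5 libraries and 3 pooled sets, and Col13a1 had 3.76 at 130 kb in CF. Of the 12 pairs, 9 had a CTCF peak with a motif at both ends, and in 7 a pair of motifs faced each other.

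Over the 12 pooled sets, the median distance of collagen interactions was 155 kb in LV to 305 kb in LM, with a median over the sets of 247.5 kb, against 280 kb (180 to 290 kb) for all genes. It was below that of all genes in 11 sets and above it in LM. The spread was wider, since the lower quartile was below that of all genes in all 12 sets and the upper quartile above it in 11. The share at 500 kb or more was 14.6% to 35.1% (median 29.3%), above the 6.18% to 24.996% of all genes in every set. This long tail came largely from Col12a1. Without it, an alternative chosen after seeing the data, the share was 6.82% to 26.7% and above that of all genes in 2 of 12 sets, and the median distance was 207.5 kb and below that of all genes in all 12. The same 42 genes enter each set, which are thus not independent.

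A CTCF peak was used where it held a match to the motif, as 81.6% to 89.4% of the peaks did, and such peaks were common at collagen contacts. The bin of the TSS held one for 56.2% to 75.6% of collagen interactions (median 67.3%) and for 56.1% to 67.7% (59.7%) of those of all genes, with the collagen share higher in 10 of 12 sets. At the other end the shares were 39.5% to 62.6% (51.2%) and 41.7% to 51.2% (44.8%), again higher in 10. Col12a1 held 37 of the 204 TSS ends of collagen interactions in LM and 34 of the 238 in CF. All its pairs end in a TSS bin with such a peak in all 12 tissue-stages. The shares without Col12a1 were not computed, so how far the collagen excess rests on this gene was not tested. Interactions with such a peak at neither end made up 9.16% to 22.9% (12.9%) of collagen contacts and 15.8% to 24.9% (21.2%) of all. Among pairs with motifs at both ends, of which there were 12 to 61 a set, 51.2% to 83.3% had motifs that faced each other, against 55.3% to 64.7% for all genes, and the collagen share was above that of all genes in 10 of 12 sets. NT and FB at E13.5 were the exceptions (55.2% against 56.3%, and 51.2% against 57.3%), and the difference was not tested. By gene, 22 of 42 collagen genes (52.4%) had a TSS bin with a CTCF motif peak in all 12 tissue-stages, against 34.8% of all genes, and 10 (23.8%) had none in any, against 39.0%. A gene with more TSS bins has more chances of such a peak, and these shares were not matched for the number of bins. For the bin of the upstream TSS alone, where no gene has more bins than another, the numbers were 13 (31.0%, against 25.8%) and 17 (40.5%, against 47.9%). The upstream bins of Col3a1, Col1a2, Col1a1, Col12a1 and Col14a1 held such a peak in all 12, also where Col3a1 and Col1a2 had no interaction, while those of Col6a1 and Col5a2 held none in any tissue-stage.

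**Figure D5:**
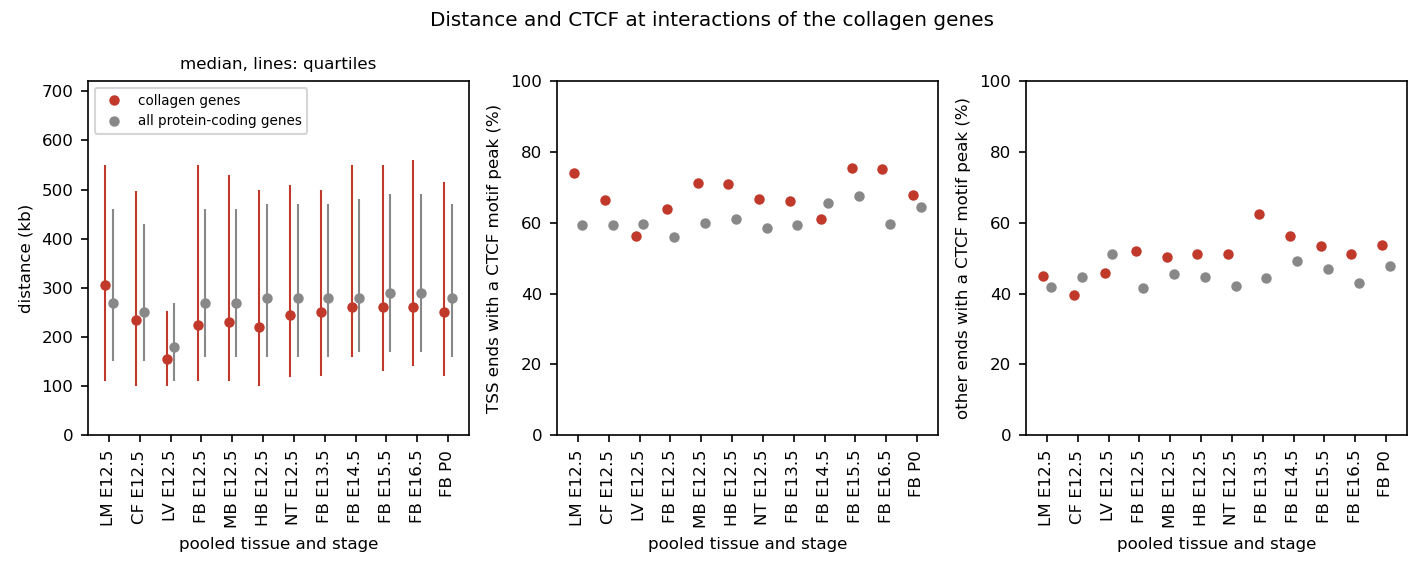
Distance of interactions (left, kb; points are medians and lines quartiles) and share of interactions with a CTCF motif peak at the TSS end (middle, percent) and the other end (right, percent) for the collagen genes (red) and all protein-coding genes (grey) in the 12 pooled sets. The collagen median distance is below that of all genes in 11 sets, and the CTCF shares are above in 10 at each end.

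The genes that make collagen ready for use were counted by role. Over the roles, 14 genes were tested at E12.5, and the shares of all genes that passed stand beside the collagen counts (11.5% higher and 14.8% lower against neural tissues). Of 19 genes of hydroxylation and folding, 6 were tested against neural tissues. Serpinh1, the collagen chaperone HSP47, was higher in the LM and CF libraries (log2 difference 1.54, limma adjusted p = 0.0138). Its pooled numbers showed no such excess, with 4 in LM and 3 in CF against 0 to 4 in the neural sets. Plod3, a lysyl hydroxylase, was lower (-1.32, adjusted p = 0.00359), with 0 in all LM and CF libraries, but its pooled numbers of 3 and 5 lay inside the neural range of 2 to 10. Plod3 was also at 0 in the LV libraries, and so it entered the test through the neural ones. Of 5 secretion genes 1 was tested and higher, Creb3l2, a transcription factor of the secretory pathway (1.49, adjusted p = 0.000781), with pooled numbers of 18 in LM and 9 in CF against 9 to 12. Neither of the 2 tested of 8 propeptide cleavage genes passed, with Adamts2, which removes the amino-terminal propeptide, at 0.85 (adjusted p = 0.149). Of 10 genes of cross-linking and fibril assembly 1 was tested and higher, Fn1, the fibronectin on which collagen fibrils form (2.70, adjusted p = 0.000368). Fn1 had a mean under 1 outside LM and CF and so entered the test through them, as Sox5 did. Its pooled numbers were 20 in LM and 17 in CF against 0 to 4. None of 7 receptors was tested. Of 6 transcription factors, 4 were tested and Runx2, the regulator of bone formation, was higher (2.34, adjusted p = 0.000783), while Sox9, the cartilage factor that acts on Col2a1, had 24.6 in LM and CF and 24.05 in neural tissues (0.02, adjusted p = 0.946). Against LV, Sox9 (4.57), Runx2 (4.11), Adamts2 (2.63), Serpinh1 (2.53), Sox5 (1.90), Fn1 (1.76) and Creb3l2 (1.53) were higher on the log2 scale, and none was lower, beside 18.3% and 17.5% of all genes tested. In late against early FB, Adamts3 (2.01), Sox5 (1.62) and Runx2 (1.21) were higher, and Sox6 and Sox9 were lower (-0.95 each), beside 14.7% and 9.17% of all genes tested. No gene of these roles passed between LM and CF.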

How the data were processed

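PLAC-seq reads were mapped to mm10 by the authors, and MAPS was run on 10-kb bins, keeping pairs with an FDR under 1% whose ratio of observed to expected reads was 2 or more. The deposited files give, for each pair, the count of read pairs, the signal that the authors' model expects and the FDR (a q-value) of the authors. The deposited CTCF peaks hold the fold over input that MACS2 gave. At P0 the FB list rests on 1 CTCF library, and for LV and the E14.5 forebrain the titles speak of technical replicates.

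Interactions per gene were the distinct pairs with an end in a TSS bin (GENCODE M21, whereas the authors used another release), read with Python 3.11.15 (numpy 2.4.6, pandas 2.3.3, pysam 0.24.0, matplotlib 3.10.9). They were scaled to the median library total and tested as log2(scaled number + 1) with limma 3.58.1 (trend and robust options, R 4.3.3) over genes whose mean reached 1, at a Benjamini-Hochberg adjusted p under 0.05 over all genes tested. The E12.5 fit had a mean per tissue (14 libraries), with LM and CF set against FB, MB, HB and NT, against LV, and against each other, and the FB fit a mean per stage (12 libraries). edgeR 4.0.16 and DESeq2 1.42.0 were alternatives. The test was checked on simulated data with planted genes. The CTCF motif was a matrix of 19 positions learnt from the 5000 peaks of CF with the highest fold enrichment. It was searched on both strands at a score that background sequence reaches at a rate of 0.0001 per position.

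Values per library are given for genes past the threshold at E12.5 (at most 12) or in FB (at most 4) and for the 3 with the most interactions, and for pathway genes at most 3 per role. Other members were named after their values were seen. The members and lists were chosen with earlier results of these data known. Col4a5 and Col4a6 are not autosomal, and 9 members share a TSS bin with another gene. Input libraries, contact maps, H3K4me3 peaks and expression were not analysed here.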

Additional observations from a re-analysis of the deposited data

Results flagged for a closer look

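Among 39 groups of 4 or 8 libraries, 6 held a library far from the rest of its group for a named collagen gene. The rate of about 1 in 20 by chance holds for normally distributed values only. It cannot be applied here, since a group with 1 library above 0 and the rest at 0 is always flagged, as for Col6a1. Col26a1 had a scaled number of 20.8 in LM replicate 1, from 10 interactions in a library with few calls, above the other 3 libraries of LM and CF. Col13a1 had 8.13 in HB replicate 2, far above the other neural libraries of E12.5. Col6a3 had 2.44 in the same library and Col6a1 0.768 in HB replicate 1, from 3 and 1 interactions. In late FB, Col12a1 had 9.53 at E16.5 replicate 1 and Col6a1 0.703 at E16.5 replicate 2, the latter from 1 interaction. The other flag is a difference between tissues: Col4a1 and Col4a2, through their shared bin, had a log2 difference of LM from CF of -2.15, which passed the test of that difference and was lost without any 1 of the 4 libraries.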

How the results depend on the processing

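No called collagen gene turned its direction. The share of interactions at 500 kb or more did, since it was above that of all genes in 12 of 12 sets and in only 2 without Col12a1, and the FB median (0.11) was -0.037 with edgeR. Against neural tissues, the number of higher collagen genes (11) was 7 with no scaling and 2 with DESeq2, which gave no adjusted p for 4 of the 11 (Col1a2, Col3a1, Col6a1 and Col6a3), and 7 to 11 with a library left out. Over the other alternatives it was 8 to 12. The number of lower ones (0) was 1 with TMM, with no scaling and with read pairs, and 0 to 1 with a library left out, each time Col16a1. The median of 1.19 was 0.71 with no scaling and 0.78 with no filter. Against LV, the number (6) was 1 with DESeq2, and the median of 1.18 was 0.72 with no filter, 0.70 with the upstream TSS only and 0.80 to 1.22 with a library left out. Between LM and CF, the 2 lower genes became 0 with no scaling, edgeR and DESeq2, 1 with no filter, 4 with read pairs and 0 to 0 with a library left out, where the median (-0.16) was -0.61 to -0.085. In FB, the 1 higher gene became 4 with no scaling, 0 with no filter, edgeR, DESeq2, the upstream TSS only or read pairs and 0 to 3 with a library left out, and the median (0.11) was 0.86 with no scaling and 0.038 to 0.33 with a library left out. The CTCF share at the TSS end (67.3%) was 75.5% without the motif requirement, and the median distance (247.5 kb) was 207.5 kb without Col12a1, an alternative chosen after seeing the data. Fewer samples or genes enter some of these fits, and otherwise the cause was not tested. Col12a1, Col25a1, Col3a1, Col1a2, Col6a1 and Col6a3 passed against neural tissues under all alternatives that gave them a p. Of these, Col3a1, Col1a2, Col6a1 and Col6a3 entered the test through LM and CF. Most alternatives kept the same filter, which favoured these genes, and so are not independent checks of them. The replicate block left all counts of collagen calls as they were (11, 6, 2 and 1), and same-numbered libraries of different tissues did not deviate together (r from -0.06 to 0.04 over 21 pairs at E12.5 and -0.05 to 0.08 over 15 in FB). Scaling moved the median of all genes against neural tissues from -0.04 to -0.15 with TMM and -0.30 with none, and the split of all calls from 621 higher and 796 lower to 515 and 955, and 344 and 1237. In FB the median went from 0.15 to 0.32 and 0.83, and the split from 781 and 487 to 1027 and 275, and 2355 and 52. Against LV the split went from 983 and 940 to 1007 and 692, and 917 and 554. Where a library holds few interactions, as in LV and LM, differences of a few interactions cannot be seen.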
